A study of Oryza sativa Indica Group and Oryza sativa Japonica Group with 20 samples.

Results

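The regions described here are the stretches of 5 Mb that were poorest in H3K4me3 on 10 rice chromosomes, in male meiocytes of the cultivars IR64 and Azucena. Peak starts of both H3K4me3 lists of a cultivar were counted in bins of 1 Mb, and on chromosomes 1, 2, 3, 5, 6, 7, 8, 9, 11 and 12 the 5 consecutive full bins with the lowest summed count were taken as the window. This gave 20 windows, 50 Mb in each cultivar. The members are the 12215 H3K4me3 and H3K27me3 peaks that start in them, of 187445 peaks in the 8 lists. The comparison set is the remaining full bins of the same chromosomes, called the rest below, with 145033 peaks. Chromosomes 4 and 10 and the partial last bin of each chromosome, with 27196 and 2823 peaks, were outside the comparison, as were 178 peaks on unplaced contigs.

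IR64 is labelled an indica and Azucena a japonica rice, and both are labelled wild type. Clusters of meiocytes at prophase of the first meiotic division were drawn from dissected anthers with glass pipettes, and the labels state that no somatic cells were taken. Each cultivar has 2 CUT&Tag libraries per mark. The labels do not say that the 2 replicates of a group are from different plants. The p-values therefore take the library as the unit, and differences between libraries may be technical. A p-value at the smallest possible level reflects only the direction or order of the libraries, not the size of their spread. The peak lists carry no gene names, so the labelled cell type was not checked against marker genes.

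H3K4me3 is deposited around the start sites of active genes by methyltransferases of the Trithorax group. H3K27me3 is written by Polycomb repressive complex 2 and covers developmental genes that are held silent. In plants the gene-poor, repeat-rich chromatin around centromeres is held silent mainly by DNA methylation and H3K9me2, and crossovers in meiosis are rare there and frequent near gene starts. The centromeres were not located here, and the assemblies of the lists were not at hand, so neither genes nor sequence of the windows can be shown.

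Uniquely aligned reads ranged from 9.22 M to 13.71 M in the H3K4me3 libraries. The H3K27me3 libraries had 47.91 M and 9.0 M in IR64, and 10.11 M and 10.28 M in Azucena. The lowest local background found in an H3K27me3 list, taken as the genome-wide level, was 2.40 and 1.85 reads in IR64, against 6.08 and 5.90 reads in Azucena. IR64 replicate 1 of H3K27me3 thus had 5.32 times the reads of replicate 2 but 1.30 times its background coverage. It stands apart from the other 3 H3K27me3 libraries in the windows, and the H3K27me3 ratios over all libraries are given with and without it. The lists of each cultivar use that cultivar's own coordinates, with the genome build not given in the sources used here, and positions were not compared base by base between cultivars.

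The windows lay in the interior of the chromosomes. The midpoint of a window was 22.7% to 55.0% along the chromosome in IR64 (median 43.0%) and 15.2% to 56.4% in Azucena (median 45.3%). On chromosome 9, whose short arm is known to be small, the windows were nearest to the start, at 3000001 to 8000000 in IR64 and 1000001 to 6000000 in Azucena. On chromosome 2 both cultivars gave the bins from 13000001 to 18000000, and on chromosome 6 those from 15000001 to 20000000. On chromosome 3 the window was 19000001 to 24000000 in IR64 and 18000001 to 23000000 in Azucena, and on chromosome 11 it was 13000001 to 18000000 and 12000001 to 17000000. On chromosome 1 it started at 13000001 in IR64 and at 16000001 in Azucena, and on chromosome 5 at 8000001 and 10000001. On chromosome 7 it started at 8000001 in IR64 and 9000001 in Azucena, on chromosome 8 at 11000001 and 13000001, and on chromosome 12 also at 11000001 and 13000001.

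Because H3K4me3 counts chose the windows, their H3K4me3 depletion is a description and carries no test. In IR64 the windows held 42.0 and 40.6 H3K4me3 peaks per Mb in replicates 1 and 2, against 99.6 and 96.9 per Mb in the rest. In Azucena they held 41.1 and 42.4 per Mb, against 88.2 and 90.5 in the rest. The windows made up 15.5% of the IR64 length and 15.8% of the Azucena length compared, and held 7.16% and 7.13% of the IR64 H3K4me3 peaks and 8.05% and 8.09% of those of Azucena. The density ratio of window to rest was 0.420 ± 0.00135 for the 2 IR64 libraries (SD) and 0.467 ± 0.00169 for the 2 Azucena libraries (SD). All 10 windows of each cultivar were below the rest in both replicates, as the rule makes likely. The same held for 51.6% of all runs of 5 bins in IR64 and 52.2% in Azucena.

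The sparsest window by H3K4me3 was that of chromosome 11 in IR64, with 28.8 and 28.2 peaks per Mb, and that of chromosome 12 in Azucena, with 31.4 and 30.8. The densest was that of chromosome 1 in IR64 by its summed count of 524 peaks, and that of chromosome 2 in Azucena with 578. Some choices were close. The chosen run of IR64 chromosome 8 held 396 peak starts and the next lowest run 398, and the pair on Azucena chromosome 3 held 425 and 426. On Azucena chromosome 12 the pair held 311 and 313, and on Azucena chromosome 9 it held 417 and 419. Other choices were wider apart, as on IR64 chromosome 6 with 382 against 428.

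The windows changed little with the replicate that chose them. When each H3K4me3 replicate was measured in windows chosen from the other one alone, 8 to 10 of the 10 windows kept their start and none moved by more than 2 Mb. The density ratio in the replicate that had no part in the choice was 0.421 and 0.420 in IR64 replicates 1 and 2, and 0.467 and 0.470 in Azucena. Since the lists of a cultivar share most of their peaks and mostly chose the same windows, these ratios are also given without a test.

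**Figure D1:**
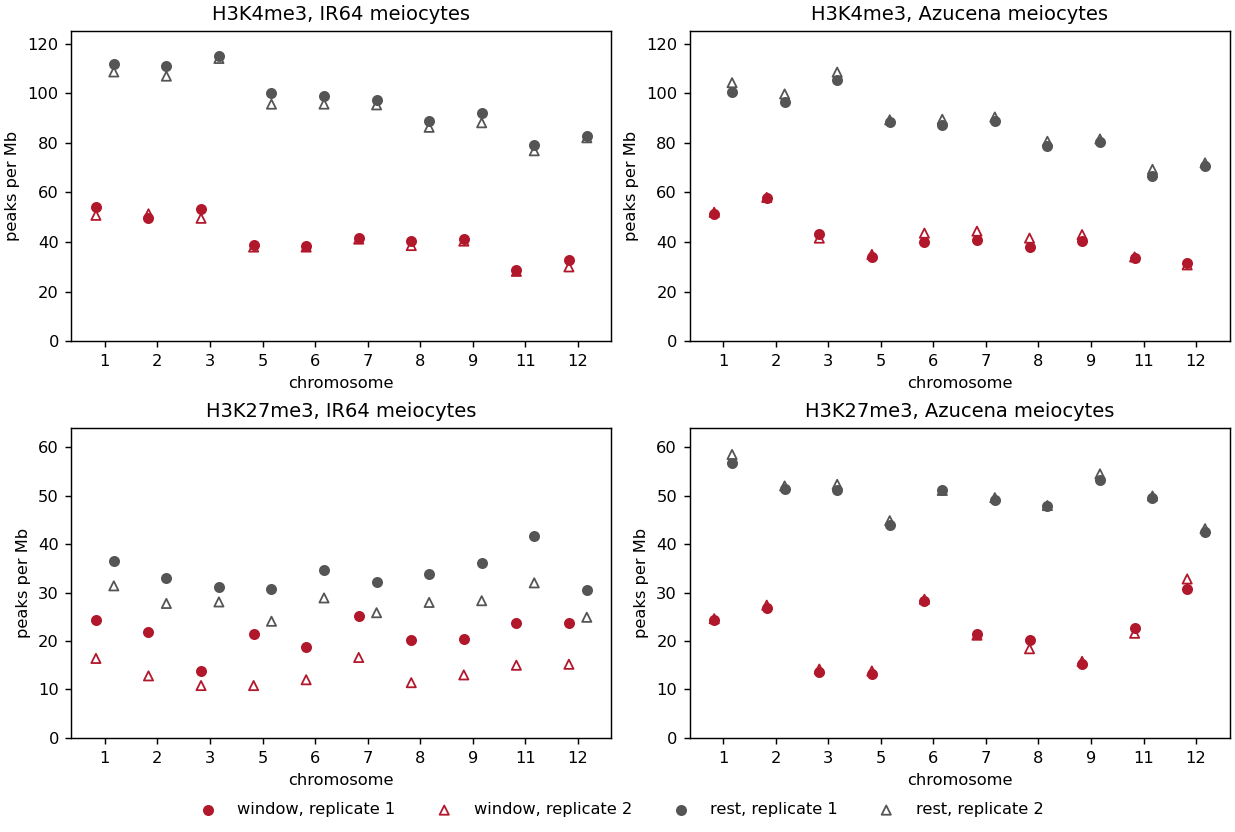
Peaks per Mb (vertical axes) by chromosome (horizontal axes) in the window and in the rest of the chromosome, for H3K4me3 (top) and H3K27me3 (bottom) in IR64 (left) and Azucena (right). Each point is 1 library. Every window point lies below the point of its own library in the rest, and the IR64 H3K27me3 replicates are farther apart than those of the other 3 groups.

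H3K27me3, which had no part in the choice of windows, was also sparser there. In IR64 the windows held 21.4 and 13.4 H3K27me3 peaks per Mb in replicates 1 and 2, against 34.1 and 28.2 per Mb in the rest. In Azucena they held 21.6 and 21.8 per Mb, against 50.1 and 50.9 in the rest. Both cultivars therefore had lower H3K27me3 density in the windows in each replicate, with a wide gap between the IR64 replicates. The window to rest ratio was 0.627 and 0.476 in IR64, and 0.432 and 0.429 in Azucena. Over the 4 libraries it was 0.485 (two-sided exact permutation test swapping window and rest within a library, p = 0.125, the smallest that 4 libraries allow, and 0.156 adjusted over 5 H3K27me3 measures). Without IR64 replicate 1 it was 0.445.

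All 10 windows in IR64 and all 10 in Azucena had a lower H3K27me3 density than the rest of their chromosome in both replicates. Of all runs of 5 bins on these chromosomes, 43.8% in IR64 and 43.5% in Azucena did so. The window was itself the run poorest in H3K27me3 on 3 IR64 chromosomes and on 4 Azucena chromosomes. A chromosome had 20 to 40 runs in IR64 and 19 to 39 in Azucena. The window shared at least 3 Mb with the poorest run on 7 IR64 chromosomes and on 9 Azucena chromosomes. The share of all runs that do so was not computed. On IR64 chromosomes 1, 7 and 12 it shared only 2, 1 and 1 Mb. By H3K27me3 count from the lowest, these windows ranked 5 of 40, 8 of 26 and 6 of 21 runs. The exception in Azucena was chromosome 12, where the run poorest in H3K27me3 lay from 8 to 13 Mb and shared no bin with the window, which ranked 10 of 23 runs. That window was a close choice, with 311 H3K4me3 peak starts against 313 in the next lowest run, so its rank depends on a narrow margin.

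The length covered by H3K27me3 peaks followed their number. Peaks covered 12.4 ± 3.04 kb per Mb in the IR64 windows and 23.2 ± 3.49 kb per Mb in the rest, and in Azucena 21.1 ± 0.268 kb per Mb in the windows and 46.6 ± 0.554 kb per Mb in the rest (SD, n = 2 each). Covered length had a ratio of 0.569 and 0.496 in the IR64 replicates, and 0.453 in each Azucena replicate. Over the 4 libraries it was 0.491 (exact permutation p = 0.125, adjusted 0.156), and 0.467 without IR64 replicate 1.

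Single chromosomes differed in how far H3K27me3 was reduced. Azucena chromosome 3 had the lowest ratio, with 13.6 and 14.2 H3K27me3 peaks per Mb in the window, against 51.2 and 52.3 in the rest. The ratio there was 0.269 ± 0.00386 (SD, n = 2). Azucena chromosomes 9 and 5 were similar, with ratios of 0.288 ± 0.00326 and 0.304 ± 0.00568 (SD, n = 2 each). The highest ratio in Azucena was on chromosome 12, where the window held 30.8 and 32.8 peaks per Mb, against 42.5 and 43.2 in the rest, a ratio of 0.743 ± 0.0241 (SD, n = 2). This ratio belongs to the close choice of window given above, and that of the next lowest run was not computed.

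In IR64 the lowest ratio was also on chromosome 3, where the window held 13.8 and 10.8 H3K27me3 peaks per Mb, against 31.1 and 28.1 in the rest. The ratio was 0.414 ± 0.0417 (SD, n = 2). IR64 chromosome 7 had the highest, with 25.2 and 16.6 peaks per Mb in the window, against 32.1 and 25.8 in the rest, a ratio of 0.714 ± 0.101 (SD, n = 2). Chromosome 12 followed at 0.695 ± 0.119 (SD, n = 2). Replicate 1 had the higher ratio of the pair on all 10 IR64 chromosomes, as the plot of ratios by chromosome shows.

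**Figure D2:**
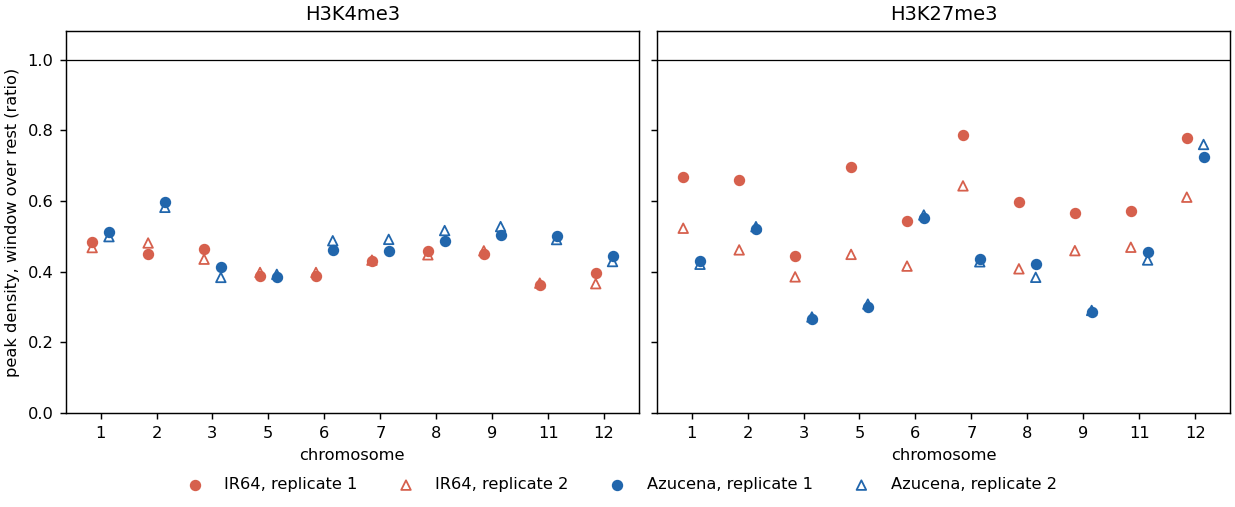
Ratio of peak density in the window to that in the rest of the chromosome (vertical axis, 1 marked by a line) by chromosome (horizontal axes) for H3K4me3 (left) and H3K27me3 (right). Points are single libraries of IR64 and Azucena. H3K4me3 ratios lie between 0.363 and 0.598, while those of H3K27me3 range from 0.266 in Azucena to 0.786 in IR64.

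The cultivars were compared by this ratio, which is taken within a library, so a factor common to its window and rest cancels. The ratio can still move with which peaks a library calls, and for H3K27me3 density it was 0.627 and 0.476 in the IR64 replicates. The H3K27me3 density ratio of IR64 was 1.27 times that of Azucena, and both IR64 libraries were above both Azucena libraries (exact permutation p = 0.333, the smallest that 2 against 2 libraries allow, 0.5 adjusted over 3 measures). Without IR64 replicate 1 the factor was 1.11. For covered length the factor was 1.17 (exact permutation p = 0.333, adjusted 0.5), and 1.09 without IR64 replicate 1. Among peaks with a fold of at least 4 the factors were 1.12 for density and 1.05 for covered length. There the IR64 libraries were no longer both above both Azucena libraries. The same loss of separation occurred for covered length with windows of 3 bins, where the factor was 1.16. Background coverage of the H3K27me3 libraries differed between the cultivars at the same time, as given above, and its part in this difference was not tested.

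By chromosome, the density of each window was set over the density of its library on the 10 chromosomes. For H3K27me3 both IR64 libraries were above both Azucena libraries in 6 of the 10 windows (chromosomes 1, 3, 5, 7, 9 and 11) and below in 1 (chromosome 6). In the rest of the chromosomes they were above on 30% and below on 60%. Window and rest are parts of 1 total, so these counts move against each other by construction. On chromosome 7 the relative densities were 0.785 and 0.642 in IR64, against 0.469 and 0.458 in Azucena. On chromosome 5 they were 0.666 and 0.418 in IR64, against 0.289 and 0.298 in Azucena. On chromosome 6 the values were 0.586 and 0.464 in IR64, against 0.618 and 0.618 in Azucena. For H3K4me3, which chose the windows, IR64 was above in 2 windows and below in 8, against 60% and 30% in the rest.

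The excess of IR64 replicate 1 in the windows consisted of peaks that replicate 2 did not call. Of its 1068 window peaks 53.5% overlapped a replicate 2 peak (95% Wilson interval 50.5 to 56.4, counting error only), against 67.7% in the rest (66.8 to 68.7). IR64 replicate 2 had 86.0% of 670 window peaks called in replicate 1, against 83.2% in the rest. The Azucena replicates had 87.2% and 87.8% in the windows, against 87.6% and 87.5% in the rest. H3K4me3 peaks of the windows were called again at 87.9% to 93.5% over the 4 libraries, against 87.1% to 91.9% in the rest.

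The peaks called in IR64 replicate 1 alone were nearly as dense in the windows as elsewhere. They numbered 9.94 per Mb in the windows and 11.004 per Mb in the rest, a ratio of 0.903. Those also called in replicate 2 numbered 11.4 per Mb in the windows and 23.1 in the rest, a ratio of 0.495. In the other 3 H3K27me3 libraries the unmatched peaks had ratios of 0.397 to 0.449. The unmatched window peaks of IR64 replicate 1 had a median width of 394 bp, against 823 bp for the matched ones. Unmatched peaks were as narrow elsewhere, at 409 bp in the rest of that library and 362 to 393 bp in the other 3 libraries. Of the unmatched window peaks of IR64 replicate 1 only 11.1% overlapped an H3K4me3 peak, against 60.2% of the matched ones.

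**Figure D3:**
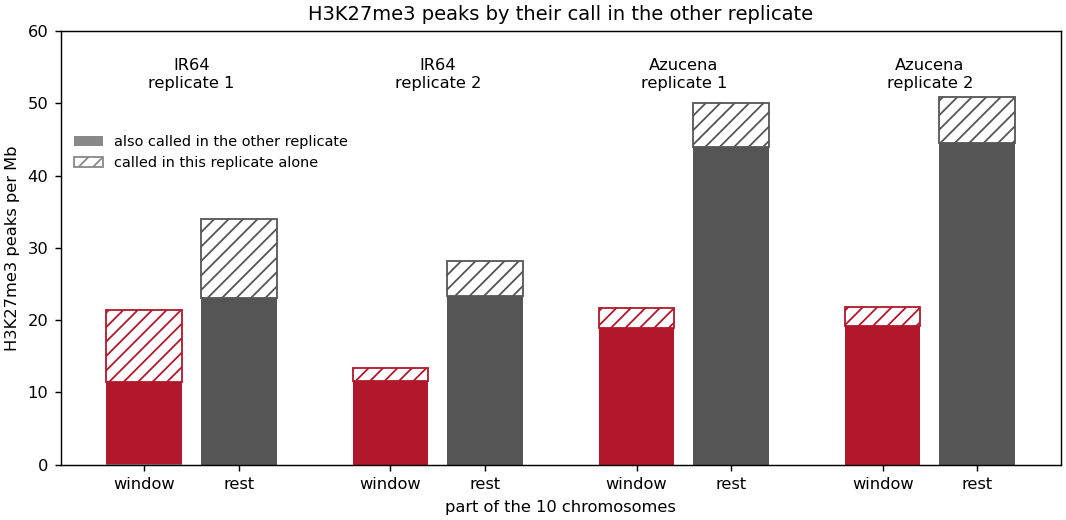
H3K27me3 peaks per Mb (vertical axis) in the windows and in the rest of the 10 chromosomes for each library (horizontal axis), split into peaks also called in the other replicate (filled) and peaks called in that replicate alone (hatched). The hatched part of IR64 replicate 1 is 9.94 per Mb in the windows and 11.004 in the rest, a smaller relative drop than in the other 3 libraries, where the ratio is 0.397 to 0.449.

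Restricting the count to reproducible regions, which are merged regions holding a peak of each replicate, left 562 H3K27me3 regions in the IR64 windows and 928 in those of Azucena. Their density was 11.2 per Mb in IR64 windows and 22.7 in the rest, a ratio of 0.495. In Azucena it was 18.6 per Mb in the windows and 43.1 in the rest, a ratio of 0.431. H3K4me3 regions had ratios of 0.428 in IR64 and 0.475 in Azucena. This restriction was chosen after the values were seen.

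The number of H3K27me3 peaks per 100 H3K4me3 peaks shares the counts that chose the windows and is a description. In IR64 it was 51.7 and 32.5 in the windows for H3K27me3 replicates 1 and 2, against 34.7 and 28.6 in the rest. In Azucena it was 51.8 and 52.3 in the windows, against 56.1 and 56.9 in the rest. IR64 libraries thus had more H3K27me3 peaks per H3K4me3 peak in the windows and Azucena libraries fewer. This difference between the cultivars was not tested.

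Both marks recovered gradually with distance from the windows. The bins next to a window, 20 in each cultivar, held 65.3 and 64.7 H3K4me3 peaks in the IR64 replicates, which is 52.9% and 54.2% of the mean of bins 9 Mb or more away. In Azucena they held 58.6 and 59.3, or 53.9% and 52.9%. H3K4me3 was still at 73.5% and 75.0% of the far level in IR64 bins 6 Mb away, and at 73.4% and 72.5% in Azucena. H3K27me3 was at 100% in both IR64 replicates at that distance, and at 90.8% and 89.2% in Azucena. Next to the window H3K27me3 was at 78.8% and 69.6% of its far level in IR64, and at 51.3% and 50.1% in Azucena. H3K27me3 thus came nearer to its far level than H3K4me3 in bins 2 to 8 Mb from the windows of both cultivars. Inside the IR64 windows H3K27me3 was already at 58.8% and 43.6% of its far level, against 34.0% for H3K4me3 in each replicate. In the Azucena windows H3K27me3 was at 38.5% and 38.0%, and H3K4me3 at 37.8% and 37.9%. The windows were placed where H3K4me3 counts are lowest, so the profiles of the 2 marks are a description without a test.

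**Figure D4:**
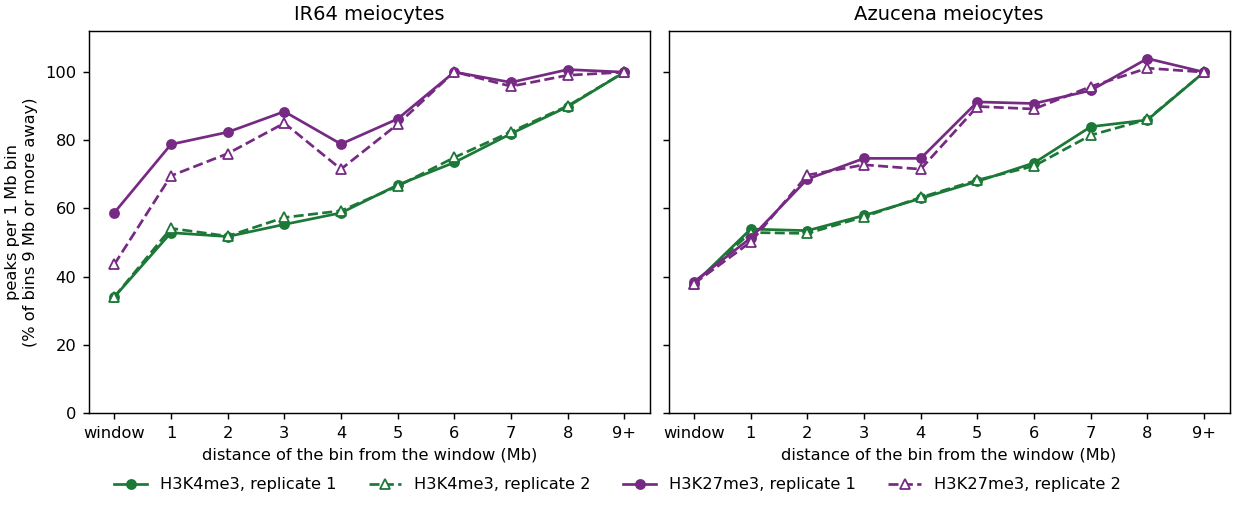
Mean number of peaks per bin of 1 Mb, as a percentage of the mean of bins 9 Mb or more from the window (vertical axis), by distance of the bin from the window (horizontal axes) in IR64 (left) and Azucena (right). Lines are single libraries. H3K4me3 is at 72.5% to 75.0% at 6 Mb in both cultivars, where H3K27me3 has reached 89.2% to 100%.

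Within the windows the single bins varied widely. The 50 bins of a cultivar held 9 to 79 H3K4me3 peaks in IR64 replicate 1 and 9 to 90 in Azucena replicate 1, with medians of 41 and 40. H3K27me3 ranged from 5 to 40 and from 1 to 33 peaks in the IR64 replicates, and from 0 to 48 and from 1 to 53 in Azucena. The poorest bin of Azucena was 10 to 11 Mb on chromosome 5, with 9 and 8 H3K4me3 peaks and 0 and 1 H3K27me3 peaks, so both marks were nearly missing from the lists there. In contrast, the next poorest Azucena bin, 16 to 17 Mb on chromosome 12, held 15 and 14 H3K4me3 peaks but 20 and 25 H3K27me3 peaks. The poorest IR64 bin was 14 to 15 Mb on chromosome 11, with 9 and 11 H3K4me3 peaks and 17 and 7 H3K27me3 peaks.

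Long stretches without any H3K4me3 peak in either replicate made up part of the windows. Stretches over 100 kb numbered 86 in the IR64 windows and covered 27.3% of their length, against 4.47% in the rest. In Azucena 69 stretches covered 22.1% of the windows, against 3.32% of the rest. The median distance between neighbouring H3K4me3 peaks was 8.76 kb in the IR64 windows and 5.09 kb in the rest, and 10.3 kb in the Azucena windows and 5.78 kb in the rest. These values follow from the same lists that chose the windows.

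H3K27me3 peaks were called inside these stretches at 15.8 and 4.47 per Mb in IR64 replicates 1 and 2, and at 5.98 and 6.07 per Mb in Azucena. IR64 replicate 1 was thus above the other 3 H3K27me3 libraries, which lay close to each other. The longest IR64 stretch was on chromosome 1, from 17515412 to 17855059, and held 5 H3K27me3 peaks in replicate 1 and 0 in replicate 2. The next, on chromosome 8 from 12933301 to 13261038, held 4 and 0. The third, on chromosome 11 from 13825180 to 14123281, held 5 and 2. The longest Azucena stretches were on chromosome 8 from 16187701 to 16607439, on chromosome 1 from 17294446 to 17645258, and on chromosome 8 from 15810897 to 16158738. None of these 3 held an H3K27me3 peak in either Azucena replicate.

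The peaks that remained in the windows had a higher fold enrichment, which is the authors' value at the summit over the local background. Median H3K27me3 fold was 4.55 ± 0.00748 in the IR64 windows and 4.08 ± 0.104 in the rest, and 4.06 ± 0.132 in the Azucena windows and 3.43 ± 0.0637 in the rest (SD, n = 2 each). The ratio was above 1 in each of the 4 libraries, between 1.10 and 1.19, and 1.15 over all (exact permutation p = 0.125, the smallest possible, adjusted 0.156), and also 1.15 without IR64 replicate 1. By chromosome the windows were higher in both replicates on 9 of 10 IR64 chromosomes and on all 10 in Azucena, against 45.9% and 58% of all runs of 5 bins. Median H3K4me3 fold was 4.08 ± 0.117 in the IR64 windows and 3.42 ± 0.0760 in the rest, and 4.25 ± 0.0324 in the Azucena windows and 3.63 ± 0.0297 in the rest (SD, n = 2 each).

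The 2 terms of the fold were recovered for each peak from its fold and p. The local background of window H3K27me3 peaks had a median of 3.19 ± 0.0839 reads in IR64, against 4.43 ± 0.233 in the rest, and of 8.99 ± 0.0647 reads in Azucena, against 12.6 ± 0.345 (SD, n = 2 each). Summit coverage was lower as well, at 20.0 and 44.5 reads in the IR64 and Azucena windows, against 23.5 and 52.0 in the rest. The window to rest ratio of the background, 0.721 in IR64 and 0.714 in Azucena, was thus lower than that of the summit coverage, 0.851 and 0.856. The same held for H3K4me3, with background ratios of 0.749 and 0.723 and summit ratios of 0.940 and 0.937. The higher folds in the windows therefore stand beside lower summit coverage, not beside higher coverage. Under the Poisson model used for this recovery, a lower background takes a higher fold to reach the same p. The lists hold only peaks past the authors' threshold, so the permutation test of the fold does not separate the peaks from their calling. The part of the calling in the higher fold was not tested. Whether reads align less often in these windows was not tested.

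Width gave no common direction. Median H3K27me3 width was 523 and 688 bp in the IR64 windows, against 622 and 631 bp in the rest, so the replicates moved apart. In Azucena it was 834 and 845.5 bp in the windows, against 784 and 761 bp in the rest. Over the 4 libraries the ratio was 1.02 (exact permutation p = 0.875, adjusted 0.875), and 1.09 without IR64 replicate 1. In Azucena 7 of 10 windows had wider peaks than the rest in both replicates and 2 had narrower ones, against 43.5% and 35.9% of all runs. In IR64 no window was wider in both replicates and 2 were narrower, against 30% of all runs each way. The IR64 to Azucena factor for this ratio was 0.881 (exact permutation p = 0.667, adjusted 0.667). Without IR64 replicate 1 it was 1.003.

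Peaks over 2000 bp were few in the windows. They made up 0.936% of H3K27me3 window peaks in IR64 replicate 1 (10 of 1068, 95% Wilson interval 0.509 to 1.71) and 0.896% in replicate 2 (6 of 670, 0.411 to 1.94), against 1.58% and 1.01% in the rest. In Azucena they made up 5.64% (4.41 to 7.18) and 4.58% (3.49 to 5.99) of the window peaks, against 5.67% and 5.14% in the rest. The Azucena ratios were 0.995 and 0.890, so replicate 1 hardly differed from the rest. The ratio was 0.825 over the 4 libraries, below 1 in each of them (exact permutation p = 0.125, the smallest possible, adjusted 0.156), and 0.921 without IR64 replicate 1. With windows of 7 bins it was 0.969 (exact permutation p = 0.75), and among peaks with a fold of at least 4 it was 0.836 (exact permutation p = 0.5).

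H3K27me3 regions of the windows overlapped H3K4me3 more often than those elsewhere, although H3K4me3 was sparser there. Among reproducible regions, 304 of 562 in the IR64 windows shared at least 1 bp with a reproducible H3K4me3 region (54.1%, 95% Wilson interval 50.0 to 58.2), against 43.6% in the rest (42.3 to 44.8). In Azucena 415 of 928 window regions did (44.7%, 41.5 to 47.9), against 33.5% in the rest (32.7 to 34.4). The share was above the rest on 8 of 10 IR64 chromosomes and on all 10 in Azucena, against 51.9% and 47.8% of all runs of 5 bins. It was highest on chromosome 2 in IR64, with 67.8% of 59 window regions, and on chromosome 5 in Azucena, with 55.2% of 58. It was lower than in the rest on IR64 chromosomes 7 and 9, at 43.8% and 37.3%, against 47.1% and 44.2%. The H3K4me3 lists enter this share and also chose the windows, so it is given without a test.

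At the level of single lists the share depended on the library. H3K27me3 peaks over an H3K4me3 peak of either replicate made up 48.6% and 48.8% in the Azucena windows, against 38.8% and 39.2% in the rest. In IR64 replicate 2 they made up 57.5% in the windows, against 48.5% in the rest. IR64 replicate 1 went the other way, with 37.4% in the windows, against 42.4% in the rest. Seen from the active mark, 19.0% and 18.9% of the IR64 window H3K4me3 peaks overlapped H3K27me3, against 15.1% and 14.7% in the rest. In Azucena 24.2% and 24.6% did, against 21.5% and 21.8% in the rest. Each list comes from many cells, so overlapping peaks need not lie on the same chromosome copy.

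The strongest regions of the windows were found on chromosome 11 for both marks in both cultivars. In IR64 the H3K4me3 region with the highest mean fold was chromosome 11, 13824495 to 13825179 (mean fold 11.5 ± 1.10, SD, n = 2). The strongest H3K27me3 region was at the same place, 13824498 to 13825202, with a mean fold of 18.1 ± 1.55 (SD, n = 2). The H3K4me3 region directly precedes the stretch without H3K4me3 on that chromosome named above. In Azucena the strongest H3K4me3 region was chromosome 11, 12509691 to 12510616 (11.7 ± 0.805), and the strongest H3K27me3 region 12509706 to 12510613 (12.6 ± 0.965) (SD, n = 2 each). Whether the IR64 and the Azucena site correspond was not determined.

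The next IR64 sites were on chromosomes 2 and 8. The H3K4me3 regions were chromosome 2, 14078109 to 14078564 (10.1 ± 0.521), and chromosome 8, 11398458 to 11399005 (9.16 ± 0.789). For H3K27me3 they were chromosome 2, 13660274 to 13660717 (13.9 ± 1.34), and chromosome 8, 11398451 to 11399003 (13.0 ± 0.675), all mean folds ± SD of n = 2. The chromosome 8 site stands in both lists, as does that of chromosome 11, and all 6 IR64 regions overlapped the other mark. These 2 sites are counted once for each mark. Over all reproducible regions of the IR64 windows, 16.3% of those of H3K4me3 and 54.1% of those of H3K27me3 overlapped the other mark.

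The next Azucena H3K4me3 regions were chromosome 1, 18057583 to 18058468 (9.60 ± 0.807), and chromosome 12, 15529026 to 15530436 (9.31 ± 0.270), and neither overlapped a reproducible H3K27me3 region. For H3K27me3 they were chromosome 7, 13681850 to 13682358 (11.01 ± 0.403), which overlapped H3K4me3, and chromosome 12, 14112385 to 14113521 (10.1 ± 0.708), which did not, all mean folds ± SD of n = 2.

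The widest reproducible H3K27me3 regions of the windows were wider in Azucena. They were chromosome 11, 17404589 to 17407423 (2835 bp), chromosome 3, 19287369 to 19290058 (2690 bp), and chromosome 6, 18449735 to 18452310 (2576 bp) in IR64. In Azucena they were chromosome 2, 14681758 to 14685890 (4133 bp), chromosome 11, 15437851 to 15441313 (3463 bp), and chromosome 12, 13162931 to 13166216 (3286 bp). Their mean folds, between 2.96 and 5.16, were far below those of the strongest regions, and 5 of these 6 overlapped H3K4me3, the exception being Azucena chromosome 11. Over all reproducible H3K27me3 regions of the windows, 54.1% in IR64 and 44.7% in Azucena did so. The greater width in Azucena was not particular to the windows, since median H3K27me3 width in the rest was 772.5 bp there and 626.5 bp in IR64. Azucena also had more window regions to draw from, 928 against 562.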

How the data were processed

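CUT&Tag peaks of 8 meiocyte libraries were used. The authors deposited 1 list per library, and each row gives a score, a fold enrichment as a ratio at the summit, and its significance as −log10 of p and of q. MACS2 2.1.0, Bowtie2 and fastp 0.20.1 are named in the submitters' processing notes, without roles. Reads come from the authors' deposited table. Genome builds, a control library and the duplicate filter are not given in the sources used here. The other 12 samples were not used here.

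Densities, widths, folds and overlaps (at least 1 bp) were computed per library in Python 3.11.15 with scipy 1.17.1. Chromosomes end at the last called base of a cultivar. Coverage was recovered from fold and p under a Poisson model with a pseudocount of 1 in each term of the fold; it was whole within 0.05 for at least 99.9% of each list. Tests are exact permutations over libraries, 16 sign flips or 6 relabellings. Functions were tested on simulated data. Windows, measures and alternatives were chosen with earlier results of these data known. Named regions are the 3 strongest and, for H3K27me3, the 3 widest reproducible regions, and the 3 longest stretches without H3K4me3. The poorest bins were chosen after their values were seen. Replicate numbers come from titles and do not pair samples.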

Additional observations from a re-analysis of the deposited data

Results flagged for a closer look

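H3K27me3 peaks per H3K4me3 peak, window over rest, were above 1 in both IR64 libraries and below 1 in both Azucena libraries, with means of 1.31 in IR64 and 0.922 in Azucena. This difference between cultivars was not tested. IR64 replicate 1 gave 1.49 and replicate 2 gave 1.13. Reproducible regions gave 1.16 in IR64 and 0.907 in Azucena. Among peaks with a fold of at least 4, the IR64 replicates stood on both sides of 1, at 1.17 and 0.844, against 0.909 and 0.886 in Azucena.

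The same opposite directions appeared on 5 single chromosomes, again untested. These chromosomes are named because they showed the pattern, and its share over all runs of 5 bins was not computed. H3K4me3 counts, which chose the windows, enter each value. The means over both replicates were 1.25 in IR64 and 0.842 in Azucena on chromosome 1, 1.46 and 0.783 on chromosome 5, and 1.66 and 0.909 on chromosome 7. On chromosome 9 they were 1.13 in IR64 and 0.558 in Azucena, and on chromosome 11 they were 1.42 and 0.896. IR64 replicate 2 alone gave 1.10, 1.14, 1.49, 1.01 and 1.28 on chromosomes 1, 5, 7, 9 and 11. The other 5 chromosomes did not show this pattern. On chromosome 12 both cultivars were above 1, with 2.05 and 1.60 in the IR64 replicates and 1.66 and 1.74 in those of Azucena, whose window there was a close choice. Chromosome 6 was also above 1 in both, with 1.38 and 1.06 in IR64 and 1.16 and 1.18 in Azucena. Chromosome 3 was below 1 in both, with 0.987 and 0.856 in IR64 and 0.668 and 0.682 in Azucena. On chromosomes 2 and 8 the IR64 replicates stood on both sides of 1.

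The share of H3K4me3 peaks over 2000 bp was higher in the windows than in the rest in both IR64 libraries, with a mean ratio of 1.23, and lower in both Azucena libraries, with 0.702. The shares were 3.29% ± 0.00709 in the IR64 windows and 2.72% ± 0.452 in the rest, and 1.58% ± 0.0324 in the Azucena windows and 2.26% ± 0.151 in the rest (SD, n = 2 each). This difference was not tested, and the H3K4me3 lists also chose the windows. Among reproducible H3K4me3 regions the share was 5.89% in the IR64 windows and 5.77% in the rest. In Azucena it was 3.61% and 4.53%.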

How the results depend on the processing

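Of 163 recomputed values for 13 results, 148 were counted as unchanged, 10 as moved and 5 as having crossed 1. For the H3K27me3 ratios and factors and the H3K4me3 density ratio, unchanged means the same side of 1, whatever the p-value. For peaks per H3K4me3 peak and the overlap shares, it also means a shift within the spread between libraries. The 10 untested values that moved went beyond that spread without crossing 1 or, for a share, without a direction. Of the 10, 9 were numbers of H3K27me3 peaks per H3K4me3 peak and the other is the share given last. The H3K27me3 density ratio stayed between 0.433 and 0.682, the highest with a fold of at least 4, and covered length between 0.421 and 0.662. The median width ratio of 1.02 crossed 1 with a fold of at least 4 (0.951) and with windows of 3 bins (0.960), and ranged from 0.992 to 1.09 with 1 library left out, below 1 without IR64 replicate 2 (0.998) or Azucena replicate 2 (0.992). The IR64 to Azucena factor ranged from 1.11 to 1.46 for density and from 1.05 to 1.25 for covered length over all alternatives. For both, the cultivars overlapped among peaks with a fold of at least 4. The IR64 to Azucena factor for width ranged from 0.773 to 1.003 with 1 library left out, above 1 only without IR64 replicate 1. The cause was not tested. With replicate number as a block the IR64 to Azucena factors were 1.27 for density, 1.17 for covered length and 0.881 for width (exact permutation p = 0.5 each, the smallest that 2 pairs allow). Deviations of same-numbered IR64 and Azucena libraries had r = 0.120 over 10 chromosomes, and nothing in the labels pairs them. With 2 libraries per group no test could pass 0.05, and peaks under the authors' threshold are not in the lists. A reciprocal overlap of 50% lowered the share of window H3K27me3 peaks over H3K4me3 to 32.7%, against 48.1% at 1 bp.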

Other observations

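Chromosomes 4 and 10 were outside the rule. Under the same count, the poorest 5 Mb of chromosome 4 was 6000001 to 11000000 in IR64 and 1000001 to 6000000 in Azucena. There H3K27me3 had a window to rest ratio of 0.397 ± 0.170 in IR64 and 0.710 ± 0.00465 in Azucena, as mean ± SD of 2 libraries. The Azucena window held 34.4 H3K27me3 peaks per Mb in each replicate, and 11 other runs of 5 bins had fewer. On chromosome 10 the windows were 7000001 to 12000000 in IR64 and 5000001 to 10000000 in Azucena, with H3K27me3 ratios of 0.413 ± 0.0875 and 0.445 ± 0.00287 (SD, n = 2 each), and each was also the run poorest in H3K27me3 of its chromosome.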
